A study of Mus musculus with 20 samples.

Results

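The libraries described here follow crypt cells labelled *Mettl3*-/- between day 4 and day 6. They are the 2 knockout libraries of day 6 set against the 4 knockout libraries of day 4, 2 sorted as Lgr5-low and 2 as Lgr5-high, and make up 6 of the 20 libraries of the series. They were chosen by their titles, and no measured value entered the choice. *Mettl3* encodes the enzyme that writes m6A, a methyl mark on adenosines of messenger RNA. Per the labels, the strain was C57BL/6 and the knockout mice carried *Mettl3*fl/fl with Lgr5-EGFP-IRES-CreERT2 and Villin-CreERT2, so that Cre was driven in *Lgr5*-expressing stem cells and in the epithelium as a whole. Knockout mice of both days received tamoxifen (20 mg/ml) for 4 days; the labels do not say from when the days were counted. Cells of digested crypts were sorted by flow cytometry as Lgr5-high or Lgr5-low. Single day 3 libraries of each gate, and 2 WT libraries of each gate, appear below only as levels or as part of the estimate of the spread. WT libraries are labelled wild type and untreated, while the protocol says that *Mettl3*fl/fl mice were injected as well.

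Some facts limit the comparison. The labels give the day 6 libraries no gate, and the column header of the first day 6 file names a low gate. The labels were followed, and day 6 was set against the mean of both gates, against each gate alone and against the range of all 4 day 4 libraries. The labels do not say whether libraries came from separate mice, so p-values measure only the spread between libraries. The 2 day 6 libraries also differed from each other. In the first, the summed FPKM (fragments scaled to transcript length and library depth) was 763177 and defensin and lysozyme genes took 45.8% of it, against 512381 and 26.9% in the second and 459286 to 607817 and 20.2% to 27.6% at day 4. Mitochondrial transcripts took 4.33% in the first day 6 library, 8.87% in the second and 6.15% to 12.7% at day 4. Depth, estimated from the steps between low values, was 25.1 and 16.6 (in 1e6 fragments) at day 6 and 15.0 to 23.3 at day 4. The whole-gene level of *Mettl3* did not separate the days, at 3.54 and 3.1 FPKM at day 6, against 3.67 and 2.75 FPKM in day 4 Lgr5-low and 4.99 and 3.51 FPKM in day 4 Lgr5-high cells (log2 difference -0.11 ± 0.19, SE; limma adjusted p = 0.814), and such a level says nothing of an exon's deletion. All 15 pan-epithelial markers reached 1 FPKM in both day 6 libraries.

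Crypts are kept up by *Lgr5*-expressing stem cells, whose identity rests on Wnt signalling and on factors such as *Ascl2* and *Olfm4*, with Paneth cells beside them that secrete defensins. After damage, crypt epithelium is known to lose these markers for a time and to take on a fetal-like, regenerative state marked by *Ly6a* (Sca-1), annexins and small proline-rich proteins. Crypt cells also answer type I interferon, which acts on genes with an interferon-stimulated response element (ISRE), and interferon gamma, which raises the class II transactivator CIITA and through it MHC class II genes.

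Between day 4 and day 6, the 80 called rises included 9 type I interferon-stimulated genes, 7 fetal-like and regenerative genes, 5 redox genes and 3 genes each of the EGF, p53 and YAP lists, and most of the 80 were in none of these. The falls included the interferon-induced GTPases *Tgtp1* and *Tgtp2*, the MHC class II gene *H2-DMa* and the Wnt inhibitor *Sfrp5*. Of 54838 genes in the files, 12396 reached 1 FPKM in at least 2 of the 6 libraries and were tested with limma on log2(FPKM + 1). At an adjusted p under 0.05, 80 rose (0.645%) and 19 fell (0.153%) at day 6 against both gates, 99 in all (0.799%). Of the 80, 21 were under 1 FPKM in all day 4 libraries and so passed the filter through day 6 alone. Here and below, values after ± are standard errors of log2 differences and adjusted p-values are from limma. Both day 6 libraries lay outside the range of the 4 day 4 libraries for 2011 genes (16.2%), 921 above it (7.43%) and 1090 below it (8.79%). Of the 921, 59 were under 1 FPKM in all day 4 libraries, so the filter alone placed them above the range. Of the 1090, 169 were under 1 FPKM in both day 6 libraries and passed the filter through day 4 alone. At an unadjusted p under 0.05 there were 1951 genes (15.7%), 868 higher and 1083 lower. List counts below for both gates and for the day 4 range are to be read against these shares. Those for 1 gate alone are to be read against the shares of that gate in the next paragraph. Of the 99 called genes 98 lay outside the range (0.791% of genes tested), the exception being the membrane protein *Mall*, whose day 6 libraries (67.4 and 56.7 FPKM) fell just inside the range (9.79 to 59.2 FPKM at day 4). *Ly6a* was just outside it. The median difference of all genes was -0.12 on the log2 scale (-0.31 after scaling to equal FPKM sums), and differences below are to be read against it. Rises were 80.8% of calls, against 69.9% with the trend on gene length removed and 93.2% after scaling to equal sums without defensin and lysozyme genes, an alternative chosen after seeing the data.

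Against the Lgr5-low gate alone 7 genes rose and 0 fell (0.0565% and 0%; 1047 genes, 8.45%, had an unadjusted p under 0.05), and against the Lgr5-high gate alone 275 rose and 180 fell (2.22% and 1.45%), a count of 455 that was 11 without the first day 6 library, 271 without the second, 33 without the first Lgr5-high library and 1845 without the second. The 7 were *Slfn4*, *Anxa8*, *Anxa10*, *Slamf9*, *Slc45a3*, *Sptssb* and the small nucleolar RNA gene *Snora7a*, listed in full and not by the naming rule. Without the first day 6 library 2 genes rose and 0 fell, the actin-capping protein *Capg* and the carbonyl reductase *Cbr3*. Without the second 68 rose and 80 fell, of which 51 were among the 99. Either fit leaves 1 library at day 6, and the medians of some lists below are given without the first library as well. In a fit of the 6 knockout libraries alone, 0 genes passed by limma and 1126 had an unadjusted p under 0.05. That fit has fewer degrees of freedom and also lacks the WT groups, whose libraries were more alike. The 2 libraries of a group correlated at 0.979 (WT Lgr5-low) and 0.981 (WT Lgr5-high). The knockout groups had 0.961 (day 6), 0.964 (day 4 Lgr5-low) and 0.940 (day 4 Lgr5-high). How far the WT groups lower the p-values was not tested. Without single day 4 libraries the counts ran from 13 rises and 0 falls (without the first Lgr5-low library) to 218 and 90 (without the second Lgr5-high library), with 40 calls in all without the second Lgr5-low library and 41 without the first Lgr5-high library. Of the 921 genes above the day 4 range, 545 had day 4 levels overlapping the WT range and day 6 levels above it, and 272 were above WT on both days. Of the 1090 below the day 4 range, 648 overlapped WT at day 4 and were below it at day 6, 201 were below WT on both days, and 46 were above WT at day 4 and overlapped it at day 6.

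**Figure D1:**
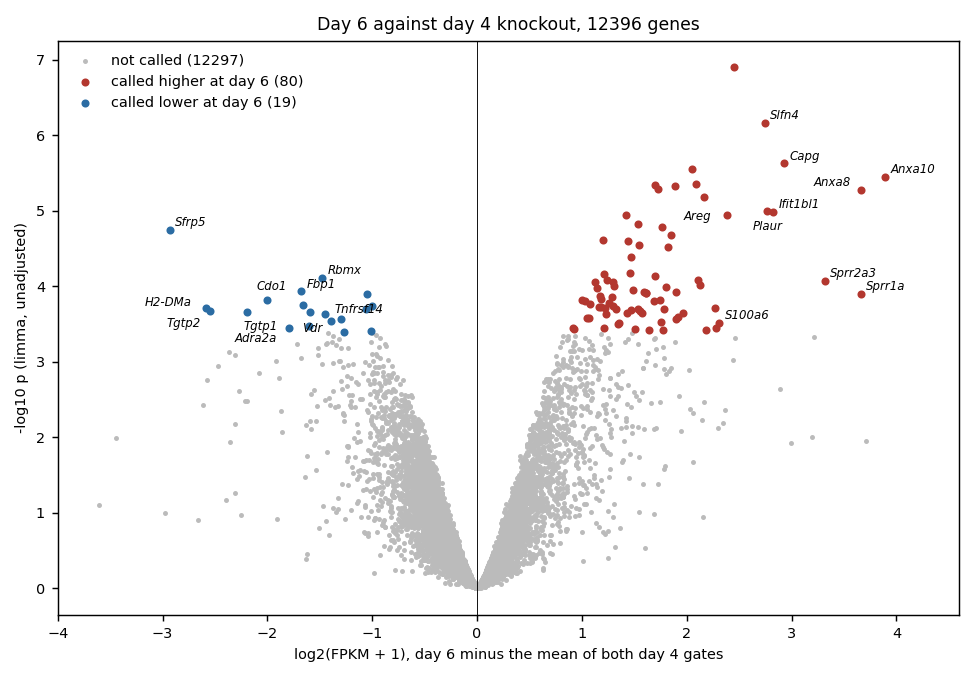
Each point is 1 of 12396 genes, with the log2(FPKM + 1) difference of day 6 minus the mean of both day 4 gates on the x axis and -log10 of the unadjusted limma p on the y axis; red points are the 80 called higher, blue points the 19 called lower, and names mark the 10 largest rises and falls chosen by the naming rule. The rises reach 3.89 (*Anxa10*) and the called falls -2.93 (*Sfrp5*).

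The 4 genes taken as marks of the late knockout state differed from each other in how firmly they moved, and none of the 4 passed the test against both gates. *Ly6a*, the surface antigen Sca-1, had 122 and 50.8 FPKM at day 6, against 11.5 and 48.5 FPKM in day 4 Lgr5-low and 6.79 and 21 FPKM in day 4 Lgr5-high cells. Both day 6 libraries were above all 4 of day 4, the second only just above the second Lgr5-low library (2.15 ± 0.60, adjusted p = 0.133). The single day 3 libraries read 2.53 FPKM (Lgr5-low) and 0.95 FPKM (Lgr5-high), and the WT libraries 0.294 to 1.6 FPKM. *Sprr2a1*, a small proline-rich protein of the cornified envelope, had 668 and 339.8 FPKM at day 6, against 67.4 and 207 FPKM in day 4 Lgr5-low and 13.4 and 32.9 FPKM in day 4 Lgr5-high cells (3.22 ± 0.59, adjusted p = 0.0526). It has the near-identical copy *Sprr2a2*, which makes its value uncertain. *Duoxa2*, which matures the hydrogen peroxide-producing oxidase Duox2, had 149 and 57.1 FPKM at day 6, against 18.7 and 30.4 FPKM in day 4 Lgr5-low and 9.61 and 12.2 FPKM in day 4 Lgr5-high cells (2.44 ± 0.50, adjusted p = 0.0662). For these 3 genes the day 6 libraries did not overlap day 4, and against Lgr5-high alone *Sprr2a1* (4.44 ± 0.69, adjusted p = 0.0218) and *Duoxa2* (2.98 ± 0.58, adjusted p = 0.0349) rose. *Axin2*, a negative feedback target of Wnt, had 8.15 and 17.2 FPKM at day 6, against 25.2 and 14.8 FPKM in day 4 Lgr5-low and 35.3 and 50.8 FPKM in day 4 Lgr5-high cells. Here the second day 6 library lay above the second Lgr5-low library, so the days overlapped (-1.2 ± 0.31, adjusted p = 0.111). *Axin2* fell against Lgr5-high alone (by 1.75 ± 0.36, adjusted p = 0.0406) and stood at -0.65 ± 0.36 against Lgr5-low (adjusted p = 0.694).

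**Figure D2:**
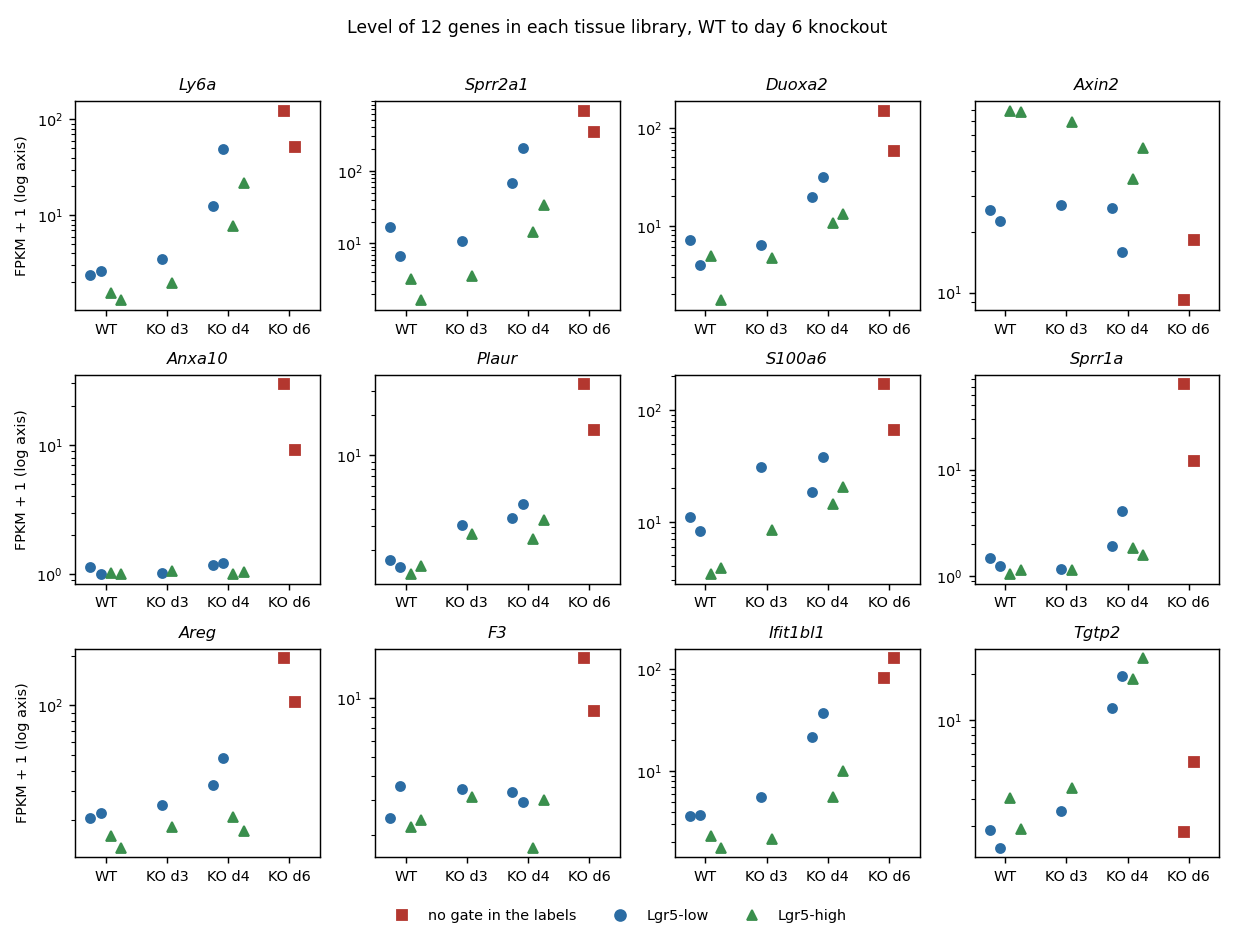
Each panel gives FPKM + 1 on a log axis for 1 gene in every tissue library, from WT through knockout day 3 and day 4 to day 6, with squares for day 6 (no gate in the labels), circles for Lgr5-low and triangles for Lgr5-high. *Anxa10* stands at 0 to 0.217 FPKM at day 4 and 28.4 and 8.19 FPKM at day 6, while *Tgtp2* is high at day 4 alone (11 to 24.5 FPKM, against 0.835 and 4.31 at day 6 and 0.434 to 2.04 in WT).

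Fetal-like and regenerative genes held the largest rise among the genes named, that of *Anxa10*. Of 30 listed genes 25 were tested, 7 rose and 0 fell, and 18 lay above the day 4 range and 0 below it. The median difference was 1.44, against -0.12 for all genes, of which 0.645% rose and 7.43% lay above the range. With Lgr5-low alone as reference 2 rose (median 1.36), and with Lgr5-high alone 9 rose (median 1.74). Of the 25, 4 were under 1 FPKM in all day 4 libraries, so they passed the filter only where they were high and had to differ, and 3 of them (*Anxa10*, *Anxa8* and *Il1rn*) are among the 7. The fourth is *Anxa1*. *Anxa10*, a calcium-dependent membrane-binding annexin (chromosome 8, 62057042 to 62123150, mm10), had 28.4 and 8.19 FPKM at day 6, against 0.185 and 0.217 FPKM in day 4 Lgr5-low and 0 and 0.0479 FPKM in day 4 Lgr5-high cells (rise 3.89 ± 0.38, adjusted p = 0.00654). *Anxa8*, another annexin, had 32.4 and 9.89 FPKM at day 6, against 0.721 and 0.765 FPKM in day 4 Lgr5-low and 0.152 and 0.49 FPKM in day 4 Lgr5-high cells (3.66 ± 0.37, adjusted p = 0.00654). *Plaur*, the urokinase receptor that localises plasminogen activation at the cell surface (chromosome 7, 24462484 to 24475968), had 32.3 and 14.3 FPKM at day 6, against 2.45 and 3.39 FPKM in day 4 Lgr5-low and 1.42 and 2.34 FPKM in day 4 Lgr5-high cells (2.76 ± 0.31, adjusted p = 0.00956). In each of the 3 the first day 6 library was the higher, and even the lower day 6 library was more than any of day 4. In WT *Plaur* ran from 0.332 to 0.706 FPKM.

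The other members that rose were *S100a6*, a calcium-binding S100 protein, with 168 and 65.2 FPKM at day 6, against 17.6 and 36.8 FPKM in day 4 Lgr5-low and 13.5 and 19.4 FPKM in day 4 Lgr5-high cells (2.31 ± 0.40, adjusted p = 0.0438), the annexins *Anxa3* (2.27 ± 0.37, adjusted p = 0.0373) and *Anxa2* (1.64 ± 0.29, adjusted p = 0.0486), and *Il1rn*, the interleukin-1 receptor antagonist (1.0 ± 0.16, adjusted p = 0.0363). Of the 7, *Anxa2* came nearest to overlap, with 249 and 132 FPKM at day 6 against 33.2 to 115 FPKM over the 4 day 4 libraries. Members above the range that did not pass included the laminin chain *Lamb3* (1.14, adjusted p = 0.0661), the TWEAK receptor *Tnfrsf12a* (1.35), the chaperone *Clu* (1.42) and *Anxa1* (2.34). *Clu*, which marks revival stem cells after injury, read 8.73 and 1.95 FPKM at day 6 against 0.697 to 1.39 FPKM over day 4. *Spp1* and *Basp1* did not separate the days (0.25 and 0.08). Without the first day 6 library 20 of the 25 could be tested, *Anxa10*, *Anxa8*, *Il1rn*, *Anxa1* and *Spp1* no longer passing the filter, and the median of the 20 was 1.1 with 0 called.

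Promoters of these genes were read for the AP-1 motif TGANTCA, the site of Fos and Jun factors. RefSeq windows from 250 bases before to 50 after the start (GRCm38.p6) were matched for 61 of the 80 genes that rose, and 15 of them (24.6%) held the motif on either strand, against 547 of 8807 tested genes with a window (6.21%) and 7.81% of all 32851 windows. Of 17 fetal-like genes with a window 6 held it (35.3%), as did 7 of 28 type I interferon-stimulated genes (25%), 4 of 17 redox genes (23.5%) and 2 of 5 MHC class II genes. Of the other motifs searched, the TEAD motif GGAATG was in 11.5% of the windows of genes that rose, against 14% of tested genes. The antioxidant response element TGACNNNGC, which can overlap AP-1, was in 14.8%, against 16.9%. By list, TEAD was in 5 of 17 fetal-like windows (29.4%) and 0 of 17 redox windows. The antioxidant element was in 7 of 17 redox windows (41.2%) and 2 of 17 fetal-like windows (11.8%). A match is a description of letters and not a bound site. The windows of *Plaur*, chr7:24462233-24462532 (plus strand), and *Anxa10*, chr8:62123144-62123443 (minus strand), are shown because these genes had some of the largest rises and hold the motif, which is in capitals. *Plaur* holds 1 match and *Anxa10* 2.
Plaur: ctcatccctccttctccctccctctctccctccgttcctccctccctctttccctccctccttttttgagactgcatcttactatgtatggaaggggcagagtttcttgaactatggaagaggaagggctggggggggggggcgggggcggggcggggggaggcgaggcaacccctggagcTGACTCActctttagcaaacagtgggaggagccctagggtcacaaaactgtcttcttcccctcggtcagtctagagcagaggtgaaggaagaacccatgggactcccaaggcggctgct
Anxa10: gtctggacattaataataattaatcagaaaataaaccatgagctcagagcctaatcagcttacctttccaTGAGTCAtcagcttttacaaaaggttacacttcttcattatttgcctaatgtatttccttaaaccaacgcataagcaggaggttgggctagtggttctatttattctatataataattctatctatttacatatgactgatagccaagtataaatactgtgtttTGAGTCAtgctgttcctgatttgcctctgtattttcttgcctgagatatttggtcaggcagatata

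Small proline-rich genes, which are cross-linked into the envelope of stratified epithelium and are known from injured gut, had the highest median of all lists. Of 15 listed genes 4 passed the filter, of which 2 rose, and for each of the 4 both day 6 libraries were above day 4, with a median difference of 3.27 (2.68 without the first day 6 library). The median was 4.33 against Lgr5-high, where 3 rose, and 2.18 against Lgr5-low, where 0 passed. *Sprr1a* had 61.8 and 11.2 FPKM at day 6, against 0.929 and 3.07 FPKM in day 4 Lgr5-low and 0.828 and 0.598 FPKM in day 4 Lgr5-high cells (rise 3.66 ± 0.56, adjusted p = 0.035). *Sprr2a3* had 101 and 43.3 FPKM at day 6, against 7.2 and 20.7 FPKM in day 4 Lgr5-low and 1.38 and 3.83 FPKM in day 4 Lgr5-high cells (rise 3.32 ± 0.48, adjusted p = 0.033). The first day 6 library was the higher for both, and for both genes the Lgr5-low libraries stood above the Lgr5-high libraries. For *Sprr1a* the gap was small at its narrowest (0.929 against 0.828 FPKM). *Sprr2a2* stood at 3.2 (adjusted p = 0.162). The *Sprr2a* genes are close copies, so reads may be split between them.

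The EGF receptor ligands *Areg*, *Ereg* and *Btc*, of a family that drives crypt proliferation and repair, rose. Of 16 tested members of the EGF list 3 rose, 0 fell and 7 lay above the day 4 range (0.645%, 0.153% and 7.43% of all genes), with a median of 0.44. Against Lgr5-high 5 rose (median 0.37), and against Lgr5-low 0 passed (median 0.41). Without the first day 6 library the median was 0.45. *Areg* (amphiregulin, chromosome 5, 91139599 to 91148432) had 193 and 104 FPKM at day 6, against 31.8 and 46.8 FPKM in day 4 Lgr5-low and 20.0 and 16.1 FPKM in day 4 Lgr5-high cells (rise 2.38 ± 0.27, adjusted p = 0.00956). *Ereg* (epiregulin) had 5.49 and 5.24 FPKM at day 6, against 1.24 and 2.84 FPKM in day 4 Lgr5-low and 0.279 and 1.01 FPKM in day 4 Lgr5-high cells (1.55 ± 0.26, adjusted p = 0.0375). *Btc* (betacellulin) had 5.59 and 5.04 FPKM at day 6, against 1.66 and 1.6 FPKM in day 4 Lgr5-low and 1.05 and 2.01 FPKM in day 4 Lgr5-high cells (1.3 ± 0.19, adjusted p = 0.0348). The 2 day 6 libraries were close to each other for *Ereg* and *Btc*, and neither gene overlapped day 4. *Hbegf* (0.46) and *Tgfa* (0.17), also ligands, did not pass, nor did the receptors *Egfr* (0.43), *Erbb2* (-0.16) and *Erbb3* (0.01). The feedback genes *Dusp6* (1.35, adjusted p = 0.0986), *Errfi1* (0.88) and *Spry4* (0.54) lay above the day 4 range without passing. *Areg* and *Ereg* also belong to the YAP target list. Of its 21 genes 11 were tested, and 4 lay above the range and 1 below it. The list's median was 0.11 (-0.02 against Lgr5-low, where 0 passed, and 0.26 against Lgr5-high). Of the 11, 0 fell and 3 rose, *Areg* and *Ereg* among them. The remaining one was *F3* (tissue factor, which starts coagulation), with 15 and 7.54 FPKM at day 6, against 2.31 and 1.94 FPKM in day 4 Lgr5-low and 0.716 and 2.02 FPKM in day 4 Lgr5-high cells (2.13 ± 0.32, adjusted p = 0.0348). *Ccn1*, another YAP target, was at 19 and 14.8 FPKM at day 6 against 9.75 to 54 FPKM over the 4 day 4 libraries and did not pass (-0.56).

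Of antimicrobial and inflammatory genes none was called against both gates. In the epithelial defence list 0 of 22 tested genes passed (9 higher and 3 lower at an unadjusted p under 0.05, against 15.7% of all genes in either direction), 9 lay above the day 4 range (7.43% of all genes) and 1 below it, and the median was 0.69. Of the 9 above the range, 1 was under 1 FPKM in all day 4 libraries and so had to lie there. In this list 2 rose and 1 fell against Lgr5-high alone, and 0 passed against Lgr5-low alone. *Reg3g*, a lectin that kills Gram-positive bacteria, had 2860.1 and 856 FPKM at day 6, against 288 and 332 FPKM in day 4 Lgr5-low and 166 and 122 FPKM in day 4 Lgr5-high cells (2.89 ± 0.68, adjusted p = 0.0914). *Reg3b* had 2550.1 and 1785 FPKM at day 6, against 650.4 and 733 FPKM in day 4 Lgr5-low and 280.3 and 218 FPKM in day 4 Lgr5-high cells (2.37 ± 0.62, adjusted p = 0.116). Both genes were above every day 4 library, with a wide gap between the day 6 libraries of *Reg3g*. *Nos2*, the inducible nitric oxide synthase, had 5.61 and 6.52 FPKM at day 6 against 0.422 to 1.66 FPKM over the 4 day 4 libraries (1.69 ± 0.31, adjusted p = 0.0526). *Noxa1*, an activator of the oxidase Nox1, did not pass (-0.76, adjusted p = 0.111). *Pla2g2a*, a phospholipase of Paneth cells, differed more between libraries of a group than between days, at 371 and 109 FPKM at day 6, against 3346 and 107 FPKM in day 4 Lgr5-low and 4723 and 87.9 FPKM in day 4 Lgr5-high cells. In the NF-kB list 0 of 24 passed (12 higher and 2 lower at an unadjusted p under 0.05), 10 lay above the range and 2 below it (median 0.44). That list had 4 rises against Lgr5-high alone and 0 calls against Lgr5-low alone. Its smallest p-values belonged to the feedback inhibitor *Tnfaip3* (0.93, adjusted p = 0.0549), the chemokine *Cxcl16* (1.85, adjusted p = 0.071), and the cytokines *Lif* (0.77) and *Tnf* (1.16). *Ccl25*, a gut-homing chemokine, lay below the range (-0.92, adjusted p = 0.0876).

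Interferon genes held both rises and falls. Of 39 type I interferon-stimulated genes tested 9 rose, while 2 of 12 interferon-induced GTPases and 1 of 8 MHC class II genes fell. For 28 genes of the type I list with a promoter window 15 held the ISRE motif, GAAA and GAAA with 2 bases between them, on either strand (53.6%), as did 8 of 9 GTPase genes (88.9%) and 1 of 5 MHC class II genes, against 3.68% of 8807 tested genes and 3.44% of all windows. The windows of *Ifit1bl1*, chr19:34601919-34602218 (minus strand), and *Oas1g*, chr5:120887564-120887863 (minus strand), which rose, and of *Tgtp1*, chr11:48992197-48992496 (minus strand), and *Tgtp2*, chr11:49064163-49064462 (minus strand), which fell, are shown with the motif in capitals, since genes that moved in opposite directions hold the same letters. In *Oas1g* 2 matches overlap, and in *Ifit1bl1* the motif reads on the opposite strand.
Ifit1bl1: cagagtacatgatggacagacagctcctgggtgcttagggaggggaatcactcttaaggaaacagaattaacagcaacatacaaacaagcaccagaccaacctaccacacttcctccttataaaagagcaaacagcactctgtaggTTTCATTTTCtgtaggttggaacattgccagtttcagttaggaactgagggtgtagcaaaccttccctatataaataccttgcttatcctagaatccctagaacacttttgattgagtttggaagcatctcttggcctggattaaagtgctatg
Oas1g: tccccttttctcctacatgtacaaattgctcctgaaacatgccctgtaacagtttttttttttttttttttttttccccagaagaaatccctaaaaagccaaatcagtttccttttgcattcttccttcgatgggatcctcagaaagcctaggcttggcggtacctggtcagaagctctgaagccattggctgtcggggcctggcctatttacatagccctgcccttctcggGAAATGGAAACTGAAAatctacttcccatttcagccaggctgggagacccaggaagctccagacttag
Tgtp1: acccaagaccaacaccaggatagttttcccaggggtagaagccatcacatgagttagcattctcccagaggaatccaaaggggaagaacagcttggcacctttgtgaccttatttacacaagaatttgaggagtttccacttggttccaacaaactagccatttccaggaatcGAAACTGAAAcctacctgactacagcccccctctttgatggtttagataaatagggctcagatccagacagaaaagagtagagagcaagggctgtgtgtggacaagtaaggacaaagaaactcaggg
Tgtp2: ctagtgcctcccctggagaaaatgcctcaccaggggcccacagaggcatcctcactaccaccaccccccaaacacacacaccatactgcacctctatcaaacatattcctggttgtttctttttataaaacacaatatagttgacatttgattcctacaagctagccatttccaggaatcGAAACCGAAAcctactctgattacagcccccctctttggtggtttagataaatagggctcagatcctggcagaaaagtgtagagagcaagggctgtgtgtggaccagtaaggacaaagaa

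In the type I list 0 fell, and 21 lay above the day 4 range and 0 below it, with a median of 0.98 (1.24 without the first day 6 library, where 0 passed). Against Lgr5-high 15 rose (median 1.32), and against Lgr5-low 0 passed (median 0.59). *Ifit1bl1*, of the IFIT family that binds foreign RNA, had 81.6 and 128 FPKM at day 6, against 20.8 and 36.1 FPKM in day 4 Lgr5-low and 4.59 and 8.94 FPKM in day 4 Lgr5-high cells (2.82 ± 0.31, adjusted p = 0.00956). *Rtp4*, an interferon-induced gene, had 17.2 and 24.6 FPKM at day 6, against 5.49 and 6.24 FPKM in day 4 Lgr5-low and 4.31 and 4.25 FPKM in day 4 Lgr5-high cells (1.85 ± 0.22, adjusted p = 0.0137). *Oas1g*, of the oligoadenylate synthetase family with close copies, had 37.2 and 30.4 FPKM at day 6, against 11.6 and 13.4 FPKM in day 4 Lgr5-low and 11.1 and 7.99 FPKM in day 4 Lgr5-high cells (1.55 ± 0.20, adjusted p = 0.016). For *Ifit1bl1* and *Rtp4* the second day 6 library was the higher, the reverse of the annexins, and the days did not overlap for any of the 3. *Bst2* (tetherin, which holds virions at the membrane) had 119 and 128 FPKM at day 6, against 43.2 and 48.8 FPKM in day 4 Lgr5-low and 70.9 and 44.8 FPKM in day 4 Lgr5-high cells (1.26 ± 0.20, adjusted p = 0.0373). *Irf7*, the transcription factor that amplifies interferon output, had 18.6 and 18.7 FPKM at day 6, against 7.03 and 12.5 FPKM in day 4 Lgr5-low and 6.16 and 5.74 FPKM in day 4 Lgr5-high cells (1.21 ± 0.22, adjusted p = 0.0485). The day 6 libraries were close to each other for these 2 genes. The IFIT genes *Ifit3* (1.97), *Ifit3b* (1.54, a close copy of *Ifit3*) and *Ifit1* (2.18) and the dynamin-like *Mx1* (1.69) were the others called. *Isg15*, the ubiquitin-like modifier, had 131 and 206 FPKM at day 6 against 31 to 72.1 FPKM over the 4 day 4 libraries and did not pass (2.02 ± 0.43, adjusted p = 0.0716). The transducers *Stat2* (0.46) and *Irf9* (0.35) did not pass.

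The GTPases, which attack the vacuoles of intracellular pathogens and answer mainly to interferon gamma, held falls and no rise. Of 12 tested 0 rose and 2 fell, and 4 lay below the day 4 range (33.3%) and 0 above it, with a median of -0.77. *Tgtp2* (chromosome 11, 49057194 to 49064206) had 0.835 and 4.31 FPKM at day 6, against 11 and 18.6 FPKM in day 4 Lgr5-low and 17.7 and 24.5 FPKM in day 4 Lgr5-high cells, and fell by 2.55 ± 0.42 (adjusted p = 0.0375). *Tgtp1* had 0.98 and 2.95 FPKM at day 6, against 7.17 and 13.4 FPKM in day 4 Lgr5-low and 11.6 and 17.1 FPKM in day 4 Lgr5-high cells, and fell by 2.19 ± 0.36 (adjusted p = 0.0375). They are near-identical copies, so their separate values are uncertain. In WT they read 0.434 to 2.04 FPKM (*Tgtp2*) and 0.12 to 1.16 FPKM (*Tgtp1*), so day 4 was above WT and day 6 overlapped it. *Igtp* (-1.89, adjusted p = 0.0804) and *Iigp1* (-2.31, adjusted p = 0.139) lay below the day 4 range and above WT. *Irgm1* (-0.03), *Gbp3* (0.28) and *Ifi47* (-0.03) did not separate the days. Without the first day 6 library the median was -0.22 and 0 passed.

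MHC class II genes, which present peptides to helper T cells, had the lowest median of all lists. Of 8 tested 1 fell and 6 lay below the day 4 range (0.153% and 8.79% of all genes), with a median of -2.23 (-1.46 without the first day 6 library). With Lgr5-high alone as reference 4 fell (median -2.51), and with Lgr5-low alone 0 passed (median -1.92). *H2-DMa*, which loads peptides onto class II molecules, had 1.12 and 5.59 FPKM at day 6, against 14.3 and 21.9 FPKM in day 4 Lgr5-low and 27.6 and 24.6 FPKM in day 4 Lgr5-high cells, and fell by 2.59 ± 0.42 (adjusted p = 0.0373). *H2-Ab1*, a class II chain, had 16.2 and 48.9 FPKM at day 6, against 74.7 and 196 FPKM in day 4 Lgr5-low and 166 and 210.2 FPKM in day 4 Lgr5-high cells (-2.37 ± 0.47, adjusted p = 0.0594). *Cd74*, the invariant chain, had 59.5 and 156 FPKM at day 6, against 215 and 559.8 FPKM in day 4 Lgr5-low and 437 and 549 FPKM in day 4 Lgr5-high cells (-2.08 ± 0.45, adjusted p = 0.0736). In each the first day 6 library was the lowest of the 6 and the second was also below day 4. Their transactivator *Ciita* stood at -1.44 (adjusted p = 0.199), with 0.0925 and 0.862 FPKM at day 6 against 0.83 to 6.21 FPKM over the 4 day 4 libraries. The levels of class I genes such as *H2-K1* (-0.13), *H2-D1* (0.25) and *B2m* (-0.47) did not pass, and in the class I list 0 of 22 passed (7 lower at an unadjusted p under 0.05) and 5 lay below the range. These 5 included the immunoproteasome subunits *Psmb9* (-1.31, adjusted p = 0.0662) and *Psmb8* (-0.86, adjusted p = 0.0929). Class II genes are also expressed by immune cells. The 34 immune markers summed to 24.6 and 15.1 FPKM at day 6 and 10.9 to 49.0 FPKM at day 4, and 5 of them passed the filter with 0 called (0 at an unadjusted p under 0.05), the largest differences being those of the granzymes *Gzma* (-0.96) and *Gzmb* (-0.94). Their part in these results was not tested.

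**Figure D3:**
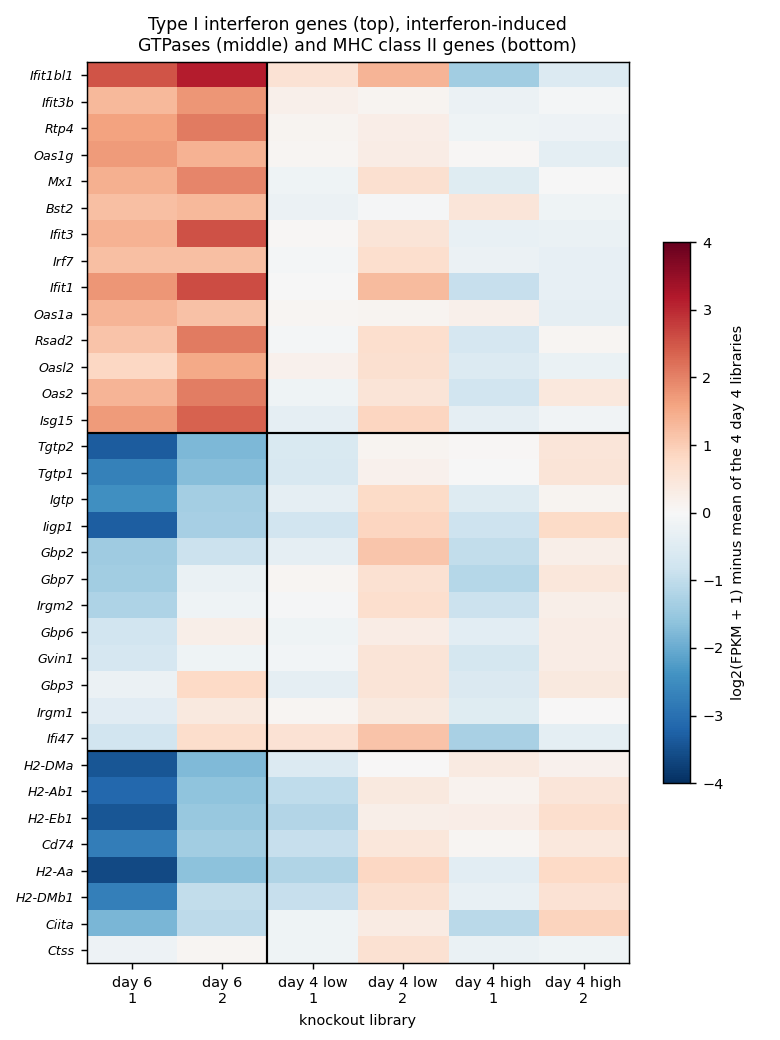
Colour gives log2(FPKM + 1) of each knockout library minus the mean of the 4 day 4 libraries, for the 14 type I interferon-stimulated genes of smallest p (top), all 12 tested GTPases (middle) and all 8 tested MHC class II genes (bottom), with day 6 in the left columns. Both day 6 libraries are red in the top block, a colour that follows in part from choosing its genes by p, whereas *Tgtp2* (-2.55) and *H2-DMa* (-2.59) are blue in both. Over all 39 tested type I genes 37 differences were positive and 2 negative.

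Stress pathways moved in part. Of 30 p53 targets 3 rose, 0 fell and 12 lay above the day 4 range (0.645%, 0.153% and 7.43% of all genes), with a median of 0.44. Against Lgr5-high 5 rose (median 0.49), and against Lgr5-low 0 passed (median 0.43). Without the first day 6 library the median was 0.51. *Phlda3*, which restrains Akt, had 39.6 and 33 FPKM at day 6, against 15 and 11.2 FPKM in day 4 Lgr5-low and 19.7 and 15.1 FPKM in day 4 Lgr5-high cells (1.22 ± 0.20, adjusted p = 0.0373). WT libraries had 0.447 to 1.62 FPKM. *Ddit4l* (1.14 ± 0.17, adjusted p = 0.0348) and the adenylate kinase *Ak1* (0.91 ± 0.16, adjusted p = 0.0485) were the other rises, *Ak1* having been under 1 FPKM in all 4 day 4 libraries. *Cdkn1a*, the cell cycle inhibitor p21, had 99.7 and 85.5 FPKM at day 6, against 54.5 and 79.9 FPKM in day 4 Lgr5-low and 23.6 and 40.1 FPKM in day 4 Lgr5-high cells, above the range but not called (1.02 ± 0.24, adjusted p = 0.0914). The p53 ubiquitin ligase *Mdm2* (0.62, adjusted p = 0.108) and the death genes *Bax* (0.60) and *Bbc3* (0.08) did not pass. In the cell death list 0 of 32 passed against both gates (7 higher and 5 lower at an unadjusted p under 0.05) and 1 rose against Lgr5-high.

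Of 22 tested genes of the integrated stress response, in which the factor ATF4 raises amino acid genes, 2 rose, 0 fell and 8 lay above the range (median 0.28). *Trib3*, a pseudokinase that restrains ATF4, had 7.88 and 4.25 FPKM at day 6, against 0.782 and 2.11 FPKM in day 4 Lgr5-low and 0.476 and 0.902 FPKM in day 4 Lgr5-high cells (1.78 ± 0.29, adjusted p = 0.0373). *Slc7a11*, the cystine importer, had 2.36 and 1.5 FPKM at day 6, against 0.229 and 0.338 FPKM in day 4 Lgr5-low and 0.0726 and 0.30 FPKM in day 4 Lgr5-high cells (1.24 ± 0.18, adjusted p = 0.033), under 1 FPKM throughout day 4. *Chac1*, which degrades glutathione, stood at 1.78 (adjusted p = 0.0714), while *Atf4* (-0.13), *Ddit3* (0.28) and *Asns* (0.40) did not pass. The C/EBP-ATF motif TGATGNAA was in 7 of 21 windows of the list (33.3%), against 2.61% of 8807 tested genes. That of *Trib3*, chr2:152344011-152344310 (minus strand), is shown with the motif in capitals; it reads on the opposite strand and starts 15 bases after the start.
Trib3: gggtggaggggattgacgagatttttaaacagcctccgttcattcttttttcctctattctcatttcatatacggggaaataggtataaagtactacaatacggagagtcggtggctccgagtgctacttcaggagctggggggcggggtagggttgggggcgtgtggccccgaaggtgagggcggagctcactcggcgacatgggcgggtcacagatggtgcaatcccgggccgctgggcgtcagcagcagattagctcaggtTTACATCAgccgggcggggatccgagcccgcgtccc

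Among redox genes, many of them targets of the factor NRF2, 5 of 21 tested rose, 0 fell and 9 lay above the range. The list's median was 0.52, with 0.80 against Lgr5-high, where 8 rose, and 0.32 against Lgr5-low, where 0 passed. *Cbr3* (chromosome 16, 93683215 to 93690990), which reduces carbonyls, had 51.4 and 79.2 FPKM at day 6, against 19.2 and 22.2 FPKM in day 4 Lgr5-low and 10.7 and 8.92 FPKM in day 4 Lgr5-high cells (2.08 ± 0.21, adjusted p = 0.00654). It had 0.481 to 0.772 FPKM in WT and was 1 of the 2 genes that also passed without the first day 6 library. The glutathione transferase *Gsta4* had 151 and 108 FPKM at day 6, against 49 and 65.3 FPKM in day 4 Lgr5-low and 24.3 and 23.6 FPKM in day 4 Lgr5-high cells (1.76 ± 0.21, adjusted p = 0.012). *Hmox1*, the haem oxygenase, had 9.22 and 5.23 FPKM at day 6, against 1.25 and 1.9 FPKM in day 4 Lgr5-low and 1.35 and 1.41 FPKM in day 4 Lgr5-high cells (1.7 ± 0.24, adjusted p = 0.033). None of these 3 overlapped day 4. *Gsta1*, which has close copies, rose too (1.92 ± 0.32, adjusted p = 0.0403), as did *Slc7a11*, which this list shares. *Nqo1* (0.43), *Txnrd1* (0.07) and the metallothioneins *Mt1* (-0.22) and *Mt2* (0.02) did not separate the days.

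Among glycolysis and hypoxia genes 1 of 25 rose and 12 lay above the range (median 0.49). That rise was of the hexokinase *Hk1*, with 8.96 and 8.2 FPKM at day 6, against 2.4 and 3.98 FPKM in day 4 Lgr5-low and 1.07 and 2.38 FPKM in day 4 Lgr5-high cells (1.54 ± 0.25, adjusted p = 0.0373). The glucose carrier *Slc2a1* (0.93, adjusted p = 0.0578) and the lactate exporter *Slc16a3* (1.32) lay above the range without passing. Among adhesion and junction genes 1 of 29 rose, the tight junction protein *Cldn4*, with 288 and 115 FPKM at day 6, against 51.9 and 51.2 FPKM in day 4 Lgr5-low and 48.7 and 42.2 FPKM in day 4 Lgr5-high cells (1.89 ± 0.32, adjusted p = 0.0407). The integrin subunits *Itga3* (0.87) and *Itgb4* (0.78) lay above the range. *Capg*, in no list, had 71.2 and 34.5 FPKM at day 6, against 8.23 and 9.93 FPKM in day 4 Lgr5-low and 3.45 and 3.35 FPKM in day 4 Lgr5-high cells (2.93 ± 0.27, adjusted p = 0.00654), and *Slfn4*, a Schlafen family gene, had 10.8 and 9.38 FPKM at day 6, against 0.677 and 1.36 FPKM in day 4 Lgr5-low and 0.126 and 0.679 FPKM in day 4 Lgr5-high cells (2.74 ± 0.22, adjusted p = 0.00426). Both genes were above every day 4 library at day 6.

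Of 25 stem cell markers tested 9 fell at day 6 against the Lgr5-high gate, where 1.45% of all genes fell. Against both gates 0 of the 25 passed (11 lower at an unadjusted p under 0.05) and 1 lay below the range (*Nrarp*), with a median of -0.68. The list's median was -1.25 against Lgr5-high and -0.11 against Lgr5-low, where 0 passed. A change of these genes after day 4 and a lack of Lgr5-high cells in the day 6 sort cannot be told apart. *Ascl2*, a master factor of stem cell identity, had 3.99 and 7.21 FPKM at day 6, against 9.96 and 5.31 FPKM in day 4 Lgr5-low and 40.3 and 31.2 FPKM in day 4 Lgr5-high cells. Both day 6 libraries were below both Lgr5-high libraries and on either side of the second Lgr5-low library (-2.51 ± 0.32 against Lgr5-high, adjusted p = 0.0135; -0.38 ± 0.32 against Lgr5-low, adjusted p = 0.818). *Olfm4*, a secreted stem cell marker, had 77.2 and 384 FPKM at day 6, against 562 and 337 FPKM in day 4 Lgr5-low and 1386 and 1845 FPKM in day 4 Lgr5-high cells (-3.21 ± 0.62 against Lgr5-high, adjusted p = 0.0349; -2.27 ± 0.54 against both, adjusted p = 0.0926). *Lgr5* itself had 0.34 and 1.27 FPKM at day 6, against 0.792 and 0.906 FPKM in day 4 Lgr5-low and 2.31 and 6.0 FPKM in day 4 Lgr5-high cells (-0.77 ± 0.31 against both, adjusted p = 0.283). The first day 6 library was the lowest of the 6 for *Ascl2*, *Olfm4* and *Lgr5*. *Smoc2*, *Cdca7*, *Rgmb*, *Soat1* and *Msi1* fell against Lgr5-high too. In bulk RNA, fewer cells of a type and less RNA per cell cannot be told apart.

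**Figure D4:**
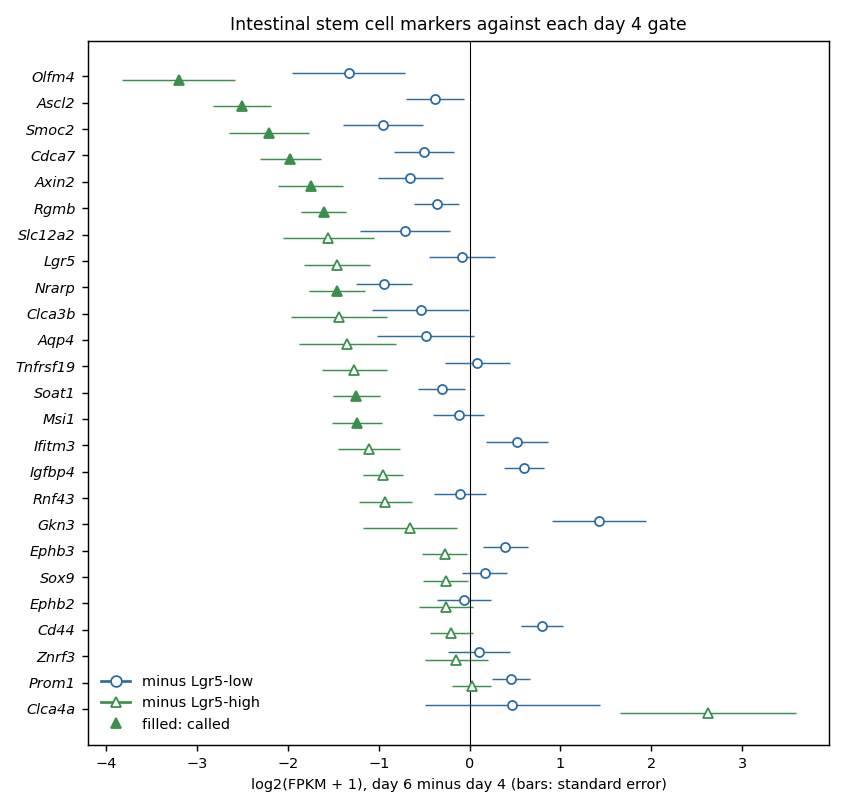
Log2(FPKM + 1) differences of day 6 minus day 4 with standard errors for the 25 stem cell markers, as circles against Lgr5-low and triangles against Lgr5-high, filled where the adjusted p is under 0.05. Filled points are all triangles (9 markers), and *Olfm4* lies at -3.21 against Lgr5-high and -1.33 against Lgr5-low.

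Of 20 Wnt targets 0 were called against both gates (1 higher and 5 lower at an unadjusted p under 0.05; median -0.26) and 3 fell against Lgr5-high, *Ascl2*, *Axin2* and *Tcf7*. *Tcf7* (-0.71, adjusted p = 0.139) and *Ccnd1* (-0.71, adjusted p = 0.158) had the smallest p-values after *Ascl2* and *Axin2*, and *Myc* stood at 0.11 ± 0.28 (adjusted p = 0.873). Among 40 cell cycle genes 0 passed (11 lower at an unadjusted p under 0.05, against 1083 of all 12396; median -0.41) and 1 was lower against Lgr5-high (1.45% of all genes). *Mki67*, a marker of cycling cells, had 17.1 and 30.5 FPKM at day 6, against 39.3 and 22.4 FPKM in day 4 Lgr5-low and 31.6 and 45.4 FPKM in day 4 Lgr5-high cells (-0.54, adjusted p = 0.428). Of 8 reserve stem cell markers 0 passed against both gates (3 lower at an unadjusted p under 0.05) and 1 fell against Lgr5-high. *Hopx* at -0.81 (adjusted p = 0.0694) and *Mex3a* at -0.73 were below the range. The Notch gene *Lfng*, which modifies Notch receptors, stood at -0.92 (adjusted p = 0.0651). In its list 0 of 18 passed against both gates (1 higher and 4 lower at an unadjusted p under 0.05) and 3 fell against Lgr5-high.

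The largest called fall was of *Sfrp5*, a secreted Wnt inhibitor (chromosome 19, 42197971 to 42202252), with 0.454 and 2.57 FPKM at day 6, against 10.3 and 7.86 FPKM in day 4 Lgr5-low and 31.9 and 26.9 FPKM in day 4 Lgr5-high cells (by 2.93 ± 0.35, adjusted p = 0.0123). WT Lgr5-low cells had 10.8 and 6.36 FPKM and WT Lgr5-high cells 34.6 and 28.3, so day 6 lay below every day 4 and WT library. *Vdr*, the vitamin D receptor, had 6.86 and 15.3 FPKM at day 6, against 32.4 and 28.7 FPKM in day 4 Lgr5-low and 33.7 and 39.2 FPKM in day 4 Lgr5-high cells, and fell by 1.6 ± 0.27 (adjusted p = 0.0375). WT libraries had 62.3 to 102 FPKM of it. *Cdo1*, which oxidises cysteine, had 2.31 and 6.26 FPKM at day 6, against 12 and 10.7 FPKM in day 4 Lgr5-low and 39 and 23.2 FPKM in day 4 Lgr5-high cells, and fell by 2.0 ± 0.32 (adjusted p = 0.0363). *Fbp1*, a gluconeogenic enzyme, had 0.601 and 2.12 FPKM at day 6, against 4.91 and 3.94 FPKM in day 4 Lgr5-low and 9.09 and 7.87 FPKM in day 4 Lgr5-high cells, and fell by 1.68 ± 0.26 (adjusted p = 0.035), and its day 4 levels were below the 18.4 to 21.2 FPKM of WT. The other named falls were the adrenergic receptor *Adra2a* (-1.8), the RNA-binding protein *Rbmx* (-1.48, a gene with retrocopies) and *Tnfrsf14*, a receptor of the lymphotoxin-like ligand LIGHT (-1.45). For all of these the second day 6 library was the higher, and neither day 6 library reached day 4. These falls are against the mean of both gates, and 0 genes fell against Lgr5-low alone. *Sfrp5*, *Cdo1*, *Fbp1* and, by a smaller margin, *Vdr* were higher in both Lgr5-high than in both Lgr5-low libraries of day 4. The size of their falls therefore depends on the gate taken as reference.

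Lineage markers gave 0 calls by limma against both gates, while 2 enterocyte genes rose against Lgr5-high alone. Among Paneth cell genes 0 of 19 passed (8 higher at an unadjusted p under 0.05) and 7 lay above the range (median 0.56). Defensin genes are close copies, so single values are uncertain, with *Defa29* at 6465 and 1927 FPKM at day 6 against 861 to 1209.9 FPKM over the 4 day 4 libraries (1.75 ± 0.44, adjusted p = 0.107) and *Lyz1* at 27288 and 11343 FPKM at day 6 against 7311 to 11158 FPKM over the 4 day 4 libraries (adjusted p = 0.284). The Paneth list summed to 270016 and 106397 FPKM at day 6 and 74723 to 140911 at day 4, and its median was 0.01 without the first day 6 library. Enterocyte genes (0 of 34 called, 4 higher at an unadjusted p under 0.05) had medians of -0.44 against Lgr5-low and 1.29 against Lgr5-high, and *Apoa1*, an apolipoprotein, had 1137 and 826 FPKM at day 6, against 413 and 1395 FPKM in day 4 Lgr5-low and 79.6 and 177 FPKM in day 4 Lgr5-high cells. Of goblet (18 tested, median 0.12), enteroendocrine (24, -0.23) and tuft markers (17, -0.70) 0 passed, and 2, 2 and 1 had an unadjusted p under 0.05 (15.7% of all genes). The smallest p-values belonged to *Klk1* (-0.79) and *Retnlb* (2.06) in goblet, *Pyy* (1.39) in enteroendocrine and *Pou2f3* (-1.09) in tuft cells. Stromal markers summed to 10.03 and 16.2 FPKM at day 6 and 7.71 to 30.4 FPKM at day 4.

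The remaining lists also had 0 calls by limma against both gates. Against Lgr5-high alone 1 immediate early gene and 1 fatty acid oxidation gene rose, and in BMP and TGF-beta signalling 1 rose and 1 fell. Of all genes 2.22% rose and 1.45% fell against that gate. Immediate early genes (29 tested, median -0.15) held *Dusp2* (-1.32, adjusted p = 0.0528), *Klf6* (0.98) and *Fosb* (-0.91, 10.7 and 12.9 FPKM at day 6 against 14.1 to 31.5 FPKM over the 4 day 4 libraries and 76.5 to 108 FPKM in WT). In BMP and TGF-beta signalling (15, 0.04) *Tgfbi* stood at -1.43 (adjusted p = 0.0549) and *Id2* at -0.98. Of the m6A machinery (18, -0.08) the reader *Ythdf2* had the smallest p, with 29.1 and 32.1 FPKM at day 6 against 17.6 to 20.1 FPKM over the 4 day 4 libraries (0.67, adjusted p = 0.0805). Medians were -0.08 for the unfolded protein response (23 tested), -0.12 for fatty acid oxidation (25), 0.05 for cholesterol synthesis (25), -0.21 for Myc and ribosome biogenesis (29), -0.27 for the respiratory chain (28), -0.39 for ribosomal proteins (38) and 0.20 for pan-epithelial markers (15). At an unadjusted p under 0.05 these lists held from 1 member (cholesterol synthesis, for example) to 5 higher and 4 lower (immediate early genes).

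**Figure D5:**
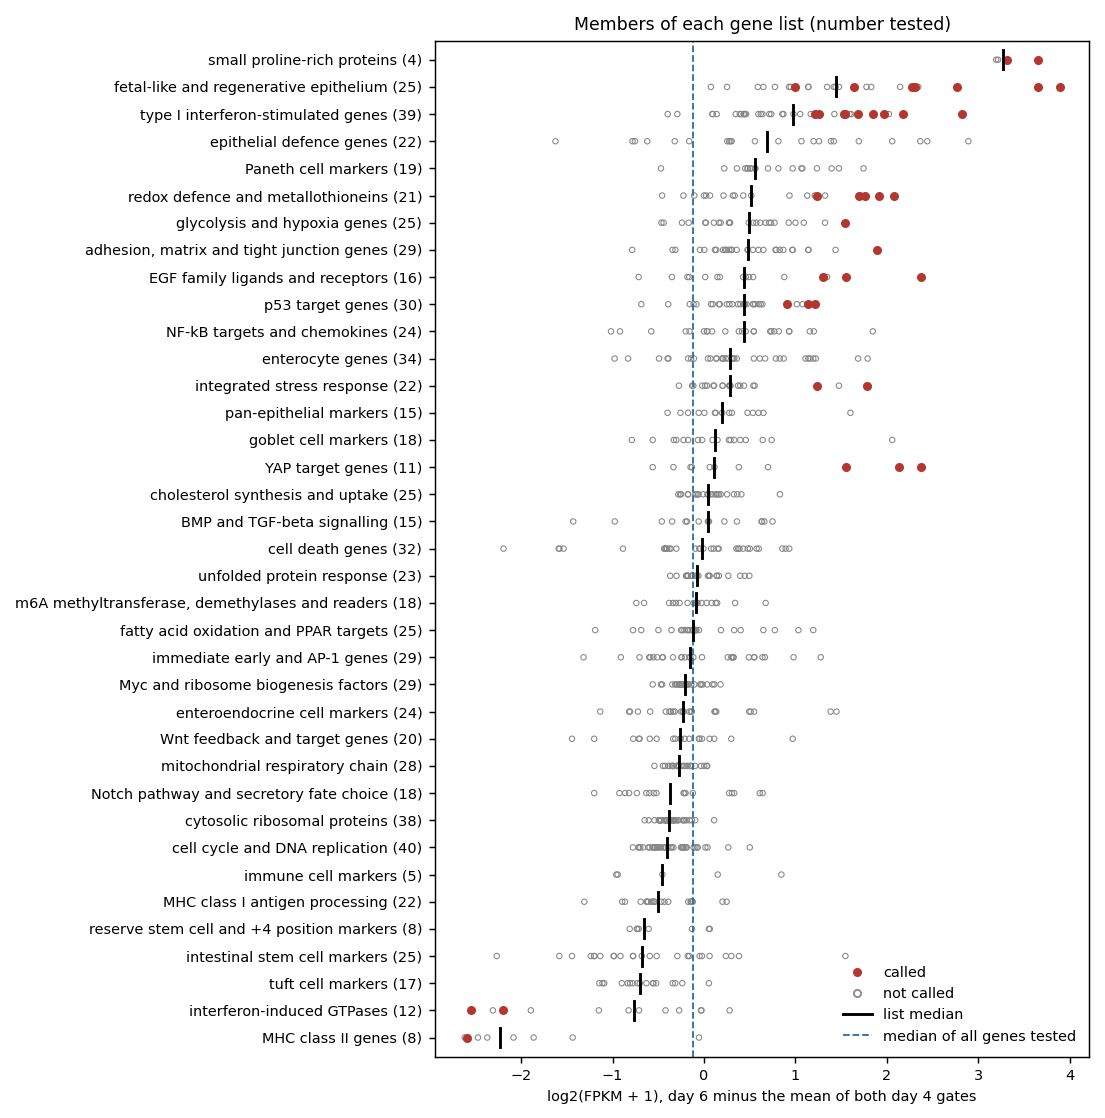
Each line is a gene list (number of members tested in brackets) and each circle a member, placed by its log2(FPKM + 1) difference of day 6 minus the mean of both day 4 gates; red circles are called, black ticks are list medians and the dashed line is the median of all genes (-0.12). Medians run from 3.27 in small proline-rich genes to -2.23 in MHC class II genes.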

How the data were processed

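RNA-seq covered sorted mouse crypt cells, made from total RNA by a NEBNext Ultra kit, per the labels; strand is not stated. The authors deposited a value per gene and library in FPKM, per the file headers. HISAT2 2.1.0, StringTie 1.3.3b and mm10 are named in the submitters' processing notes, which give no roles here. FPKM holds no counts, so no count test was run, and depth is a rough estimate. GENCODE M21 gave symbols and positions for 54809 of 54838 gene IDs.

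Values were taken as log2(FPKM + 1), a scale that understates the change of low genes. Genes at 1 FPKM or more in at least 2 of the 6 knockout libraries were fitted with limma 3.58.1 (R 4.3.3; lmFit, eBayes with trend) over 10 tissue libraries in 5 groups, WT included for the spread. Day 3 stayed outside the fit. P-values are two-sided and were adjusted by Benjamini-Hochberg over 12396 genes, called at adjusted p under 0.05; an exact permutation of 2 libraries against 4 cannot reach that level. The fit was also run on simulated data with independent noise for each gene and library, which cannot speak to shifts shared by a whole library. The genes named are the 10 largest rises and 10 largest falls among called genes outside the day 4 range with a mean of at least 5 FPKM in either group (unnamed, predicted and small RNA genes left out), 11 marker and control genes given by name, and the 4 of smallest p in each list. Others were chosen after their values were seen. The members and the gene lists were chosen with earlier results of these data known. The organoid table was not used. Python 3.11.15 and pandas 2.3.3 made the tables.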

Additional observations from a re-analysis of the deposited data

How the results depend on the processing

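Counts of called genes moved with most alternatives. Against 99 calls with both gates, 7 with Lgr5-low and 455 with Lgr5-high, a pseudocount of 0.1 gave 17, 0 and 260, and scaling to equal FPKM sums 39, 4 and 85. Without a filter they were 78, 17 and 73, and a minimum of 5 FPKM gave 28 calls with both gates and 0 with Lgr5-low; the genes outside the day 4 range were then 3584 and 1274, against 2011. Median-of-ratios scaling gave 190 and 3 (both gates and Lgr5-low), and quantile scaling 270 and 705 (both gates and Lgr5-high). With knockout libraries only the counts were 0, 0 and 13, with 3 of the 5 groups in the fit. Day 4 as 1 group gave 49 calls, and removing the trend on gene length gave 372, 13 and 1089. Scaling to equal sums without defensin and lysozyme genes, chosen after seeing the data, gave 73 and 212 (both gates and Lgr5-high). The causes of these moves were not tested.

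Leaving out 1 library at a time gave 2 to 308 calls with both gates, 0 to 77 with Lgr5-low, 11 to 1845 with Lgr5-high and 2268 to 5640 genes outside the range. Without the first day 6 library 2, 0 and 11 genes were called (both gates, Lgr5-low and Lgr5-high). Without the second there were 77 with Lgr5-low. Without the first and the second Lgr5-low library 1 and 0 were called with Lgr5-low. Without the first Lgr5-high library 33 were called with Lgr5-high, and without the second 1845; Lgr5-low had 4 in both cases. An arm with 1 library was assumed to vary like the other groups.

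Groups share only the replicate numbers 1 and 2. Deviations of same-numbered libraries correlated at 0.048 between day 6 and Lgr5-low, 0.53 between day 6 and Lgr5-high and 0.35 between the day 4 gates, and over all pairs of groups from 0.019 to 0.53, and nothing in the labels ties the numbers to mice. With the replicate block 245, 14 and 787 genes were called. Called members were then 5 (defence), 3 (NF-kB), 11 (fetal-like), 17 (type I interferon), 7 (redox) and 4 lower (MHC class II), against 0, 0, 7, 9, 5 and 1 without it.

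Across the alternatives, which include scaling and leaving out 1 library, no direction reversed in a called gene named by the rule. The calls themselves did not hold in all of them. They were lost in 12 of 18 alternatives for *Hk1*, 11 for *Adra2a*, 9 for *Tgtp2* and 1 each for *Capg* and *Cbr3*. *Anxa10* could be tested in 16 alternatives and *Il1rn* in 15. Other called genes were not followed across the alternatives. List medians kept their sign for the fetal-like (1.10 to 1.79), small proline-rich (2.68 to 3.84), type I interferon (0.70 to 1.25), GTPase (-1.32 to -0.22), MHC class II (-2.96 to -1.46), p53 (0.24 to 0.55) and redox lists (0.29 to 0.78), and changed sign in some setting for the YAP, cell death, unfolded protein, enterocyte, goblet, enteroendocrine, BMP, fatty acid oxidation, cholesterol, m6A, stromal and pan-epithelial lists. With 2 libraries at day 6 and no gate in their labels, the single-gene values rest on small groups, and low genes are limited by depth.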
